A study of Arabidopsis thaliana with 14 samples.

Results

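The comparison described here is that of hda5-1 seedlings with Col wild type, taken across all genes. The deposited tables listed 33602 gene IDs, and a gene entered the comparison where its RPKM (read number scaled by transcript length and library size) was above 0.1 in at least 3 of the 6 libraries, which left 21932 genes. All libraries came from whole Arabidopsis thaliana seedlings of the Col-0 background, 14 days old and grown in long days. Col had no mutation stated and hda5-1 was given as hda5 -/-, with 3 libraries each. How the hda5-1 allele was made, whether it is more than 1 line, and at which hour the plants were taken are not given in the sources used here. The 3 libraries each of hda6-6 (hda6 -/-) and hda9-1 (hda9 -/-) served to ask which differences also set hda5-1 apart from other deacetylase mutants, and the series of 14 libraries further held 1 library each of fld-6 and fve-4.

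HDA5 encodes a class II histone deacetylase of the RPD3/HDA1 family. Such enzymes remove acetyl groups from lysines of histones and other proteins, and histone deacetylation usually goes with lower transcription of the gene it marks. In Arabidopsis, HDA5 is known as a promoter of flowering that acts with HDA6, FVE and FLD on the floral repressor FLC, a MADS-box factor which holds back the flowering integrators FT and SOC1. HDA6 and HDA9 are class I enzymes of the same family.

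Promoters are shown first for the genes with higher RNA in hda5-1, because a short stress motif was more common in them than over all genes. The windows ran from 250 bases before to 50 bases after the annotated start (RefSeq annotation of TAIR10.1), and 21620 tested genes had such a window. CGCGTT, the core of the rapid stress response element of early wound and stress genes, was searched on both strands and stood in 3.78% of all 21620 promoters, in 8.92% of the 1256 promoters of genes called higher in hda5-1 and in 3.05% of the 886 promoters of genes called lower. The other motifs, also read on both strands, were AAATATCT (the evening element of clock genes), CACGTG (the G-box), TTGACC (a form of the W-box bound by WRKY factors) and GCCGCC (the GCC box bound by ethylene response factors), and none of the letter strings contains another. AAATATCT stood in 5.91% of all promoters, 8.2% of those higher and 9.14% of those lower. CACGTG stood in 8.62% of all promoters, 7.01% of those higher and 11.6% of those lower. TTGACC stood in 14.4% of all promoters, in 221 of the 1256 higher and in 14.3% of those lower. GCCGCC stood in 2.73%, 2.31% and 2.37%, in the same order. In the 103 promoters of genes called higher in hda5-1 than in Col, hda6-6 and hda9-1, of which 59 lie in the stretch of chromosome 1 described further on, the shares were 10.7% for CGCGTT, 18.4% for AAATATCT, 11.7% for CACGTG, 15.5% for TTGACC and 3.88% for GCCGCC.

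Of the 69 genes named below as called higher in hda5-1, 65 had a window and 7 of these held CGCGTT, at 8 places. The stretches of 60 bases around those places are printed with the motif, or its reverse complement AACGCG, in capitals, on the strand of the gene. The position is that of the first capital, counted from the annotated start.
ERF10, position -155, chr1:958506-958565, minus strand: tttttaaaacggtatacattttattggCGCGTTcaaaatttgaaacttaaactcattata
LOX4, position -179, chr1:27308307-27308366, plus strand: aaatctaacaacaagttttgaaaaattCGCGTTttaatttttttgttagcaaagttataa
CPK29, position -219, chr1:28537347-28537406, plus strand: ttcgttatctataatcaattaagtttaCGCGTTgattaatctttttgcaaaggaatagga
EXLA3, position -144, chr3:16892531-16892590, plus strand: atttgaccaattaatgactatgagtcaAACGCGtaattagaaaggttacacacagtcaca
EXLA3, position -80, chr3:16892595-16892654, plus strand: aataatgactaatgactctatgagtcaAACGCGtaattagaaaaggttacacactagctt
EXLA1, position -136, chr3:16896003-16896062, plus strand: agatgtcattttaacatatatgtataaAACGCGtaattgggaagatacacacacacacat
XTH18, position -76, chr4:14827255-14827314, minus strand: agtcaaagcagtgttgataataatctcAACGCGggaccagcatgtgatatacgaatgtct
ACS8, position -137, chr4:17751915-17751974, plus strand: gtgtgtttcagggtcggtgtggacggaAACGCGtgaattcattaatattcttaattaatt
These genes encode an ethylene response factor (ERF10), a lipoxygenase of jasmonate synthesis (LOX4), a calcium-dependent kinase (CPK29), expansin-like wall proteins (EXLA1, EXLA3), a xyloglucan endotransglucosylase (XTH18) and an enzyme of ethylene synthesis (ACS8). A match of 6 letters is a description of the window and not a binding site, and nothing was tested on it.

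The targeted gene was examined first. HDA5 (AT5G61060) was at 10.1, 10.9 and 10.7 RPKM in the Col libraries and at 3.8, 3.32 and 3.23 RPKM in the hda5-1 libraries. The groups did not overlap, and HDA5 RNA was lower in every hda5-1 library although it was still detected. The log2 difference, taken throughout on log2(RPKM + 0.1) and written as hda5-1 minus the other group, was -1.59 (SE 0.107, adjusted p = 8e-05 by limma with Benjamini-Hochberg adjustment). Against hda6-6 it was -1.72 and against hda9-1 -1.67. HDA18, the tandem neighbour and closest relative of HDA5, was at 0.453 RPKM in Col and 0.468 RPKM in hda5-1, with a log2 difference of 0.04 (adjusted p = 0.922). Of the 13 tested deacetylase genes, HDA5 was the only gene that passed the test. Among the 10 annotated genes on each side of HDA5, 15 were tested and none was called. AACT1, an acyltransferase gene, had a log2 difference of 2.17 (adjusted p = 0.0574) and was called higher without Col replicate 2 (2.87).

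A gene was called where limma gave an adjusted p under 0.05 and the difference was at least 2-fold. By this rule 1262 genes were higher in hda5-1 than in Col, which was 5.75% of the genes tested, and 891 were lower, which was 4.06%. The median log2 difference over all 21932 genes was 0.05. More than 4-fold differences were called for 187 higher and 183 lower genes. Of the 2153 called genes, 2143 had groups that did not overlap, against 45.3% of all tested genes. Directly against hda6-6, 373 genes (1.7%) were higher and 408 (1.86%) lower in hda5-1. Directly against hda9-1, 980 genes (4.47%) were higher and 432 (1.97%) lower. A gene that was called in the same direction against Col, hda6-6 and hda9-1 is called set apart in hda5-1 below. There were 103 such higher genes (0.47%) and 63 such lower genes (0.287%). Against the same Col libraries, hda6-6 had 1371 higher genes (6.25%) and 1135 lower genes (5.18%), and hda9-1 had 463 higher (2.11%) and 861 lower (3.93%). The depth of the 6 libraries, worked out from the spacing of low RPKM values, was 21574000 to 25509000 mapped reads, and the correlation of log2 values was 0.979 to 0.985 within Col or hda5-1 and 0.943 to 0.959 between them. In these libraries of whole seedlings, fewer cells of a type and less RNA per cell cannot be told apart.

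Most genes of a single stretch of chromosome 1 were higher in hda5-1 than in each of the other genotypes by a nearly uniform amount. The stretch was found after the values had been seen, so it is described with no test. In running medians of 21 neighbouring genes with a mean RPKM of at least 1, it was the only run of at least 10 genes on the 5 chromosomes where the median log2 difference reached 0.5 against Col, hda6-6 and hda9-1 alike. It extended from AT1G73740 to AT1G77600, chr1:27734024-29162448 (TAIR10.1 annotation), which is 1428 kb with 427 annotated genes. Of these genes 370 were tested, and 306 had a mean RPKM of at least 1. The median log2 difference of the 306 genes was 1.01 against Col, 1.01 against hda6-6 and 0.93 against hda9-1, where 1 is a doubling. The quartiles were 0.69 and 1.28 against Col, 0.81 and 1.21 against hda6-6, and 0.72 and 1.18 against hda9-1.

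**Figure D1:**
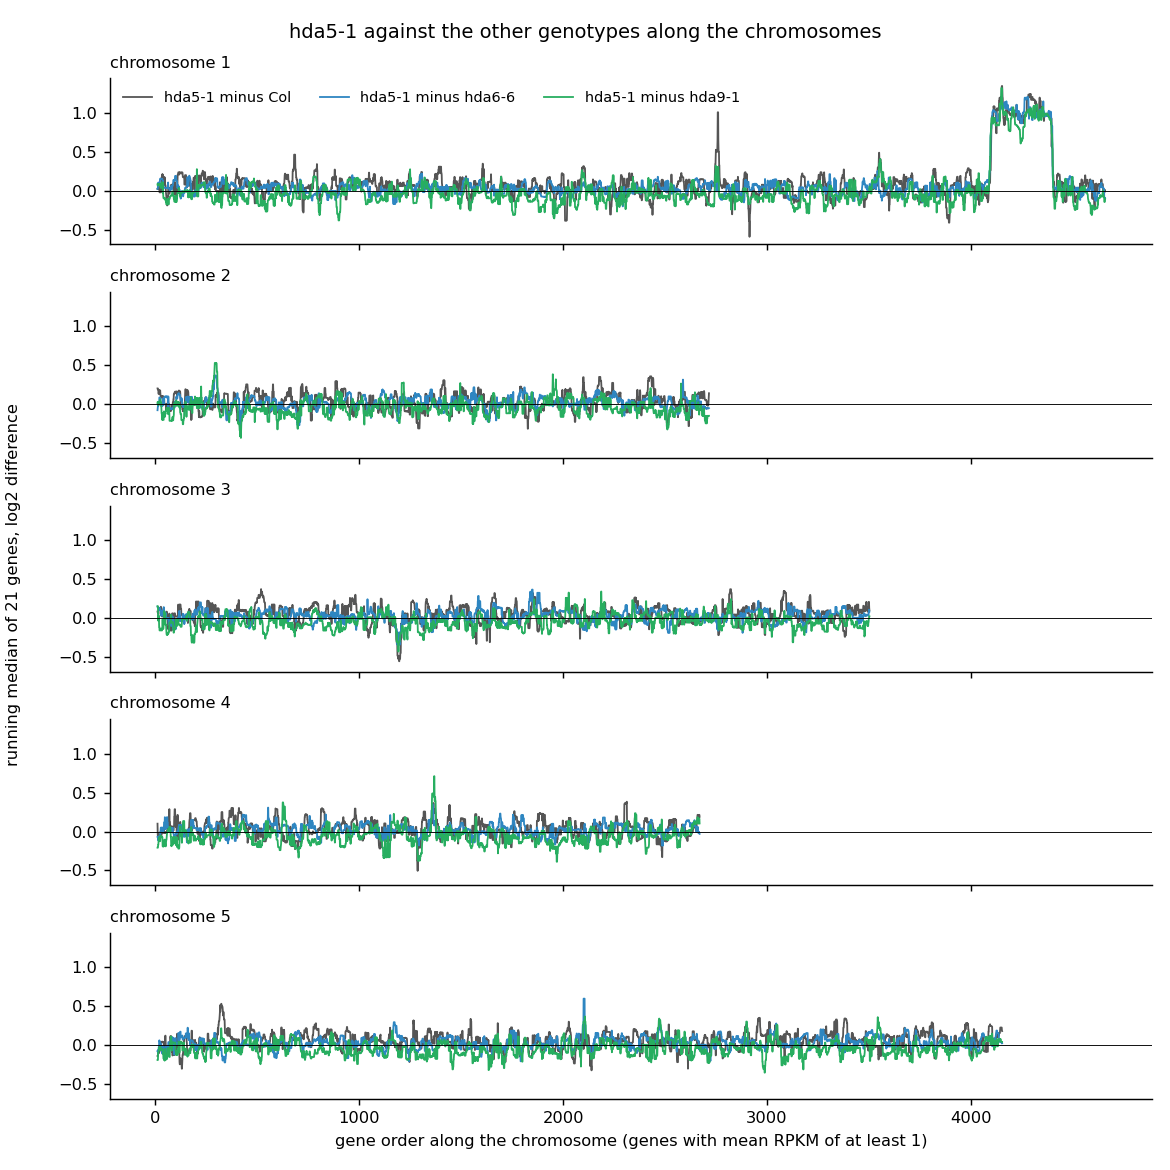
Running medians of 21 genes of the log2 difference of hda5-1 from Col, hda6-6 and hda9-1 (y axis) along the order of genes with a mean RPKM of at least 1 on each chromosome (x axis). All 3 lines step up to about 1 near the end of chromosome 1 and return to about 0 after it, while elsewhere the lines against hda6-6 stay between -0.35 and 0.60.

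Each edge was placed where a step best matched the mean difference of hda5-1 from hda6-6 and hda9-1. A change at the edge genes is thus in part given by that choice. EIL3, the last tested gene before it, had log2 differences of -0.39, -0.10 and -0.11 against Col, hda6-6 and hda9-1, and AT1G73740, the first inside, had 1.27, 0.93 and 0.94. At the other end AT1G77600 had 0.55, 1.39 and 0.88 and the next gene, AT1G77610, had -0.21, 0.03 and -0.24. The 306 genes before the stretch had medians of 0.04, 0.02 and -0.05 and the 267 genes after it had 0.05, 0.01 and -0.08. Outside the stretch the running medians lay between -0.35 and 0.60 against hda6-6 and between -0.43 and 0.71 against hda9-1. Against Col they lay between -0.59 and 1.01, with the high value at a group of receptor-like kinase genes around AT1G51890 that did not stand out against hda6-6 or hda9-1, as the plot of running medians along the chromosomes shows.

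The shift was seen in every hda5-1 library and in no other. The median log2 difference of the 306 genes from the Col mean was 0.99, 1.01 and 1.04 in the 3 hda5-1 libraries. In the Col libraries it was -0.01, 0.05 and -0.02. It lay between -0.04 and 0.15 in hda6-6 and hda9-1, and was 0.05 in fld-6 and 0.21 in fve-4, where all other genes also had 0.21. In 249 of the 306 genes (81.4%) all 3 hda5-1 libraries lay above all 9 libraries of Col, hda6-6 and hda9-1, against 3.46% of all other tested genes.

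**Figure D2:**
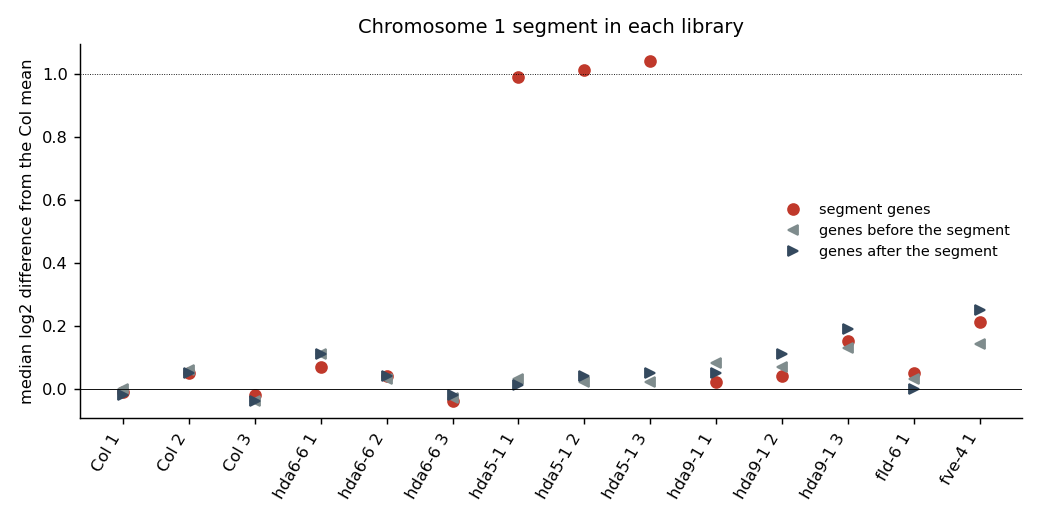
Median log2 difference from the Col mean (y axis) in each of the 14 libraries (x axis) for the 306 genes of the chromosome 1 stretch (circles) and for the 306 genes before and 267 genes after it (triangles). The 3 hda5-1 circles sit at 0.99 to 1.04 and those of the other libraries between -0.04 and 0.21, while the triangles of hda5-1 stay near 0.

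The size of the shift changed little with expression. When the 306 genes were split by mean RPKM into groups of 102, the medians against hda6-6 were 0.90, 1.05 and 1.03 from the lowly to the highly expressed, and those against hda9-1 were 0.92, 0.94 and 0.93. Differences between 0.5 and 1.5 were found for 85.3% of the 306 genes against hda6-6, compared with 6.44% of other genes, and for 77.1% against hda9-1, compared with 10% of other genes. The difference was positive in all 3 comparisons for 284 of the 306 genes and not for the other 22. Only 4 of the 306 genes were below 0.5 in all 3 comparisons. These were AT1G77520 and AT1G77530, which encode O-methyltransferase family proteins, the vacuolar iron transporter family gene AT1G76800 and AT1G75560.

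The stretch held genes of unrelated roles. ERD14, a dehydrin, had 511, 546 and 539 RPKM in Col and 1602, 1310 and 1405 RPKM in hda5-1, with means of 547 in hda6-6 and 530 in hda9-1. ENO1, an enolase of glycolysis, had 11.7, 13.6 and 12.6 RPKM in Col and 45.1, 36.8 and 32.9 RPKM in hda5-1. SOT16, a sulfotransferase of glucosinolate synthesis, had 60.6, 64.6 and 54.2 RPKM in Col and 169, 186 and 146 RPKM in hda5-1. In each of the 3 genes the hda5-1 libraries lay above all Col libraries, with log2 differences of 1.43, 1.58 and 1.48. Other members were further apart, and 19 genes of the stretch had a log2 difference above 2 against Col. The mitotic cyclin gene CYCB2;4 rose from 2.95 to 17.8 RPKM (log2 difference 2.55, adjusted p = 2e-05 by limma) and XXT5, a xylosyltransferase of xyloglucan synthesis, from 23.2 to 142 RPKM (2.58, adjusted p = 8.67e-05). The members of this paragraph were picked after their values were seen.

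Of the 370 tested genes of the stretch, 163 (44.1%) were called higher and 2 lower in hda5-1 against Col, and the lower ones were ORA47 and PUP15. Outside it 1099 of 21562 genes (5.1%) were called higher. Of the 103 higher genes set apart in hda5-1, 59 (57.3%) lay in the stretch, which held 1.69% of tested genes, and 44 lay elsewhere. None of the 63 lower genes set apart in hda5-1 lay there. The files hold RNA only. DNA was not measured here, and what sets these values was not tested. MAF1, JAZ2, SARD1, ICS1, HSP101, CPK29 and ORA47, which are named elsewhere in the text, lie in the stretch.

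Among flowering genes, the repressor FLC was higher and several activators were lower in hda5-1 than in Col. FLC (AT5G10140) was at 5.06, 3.91 and 4.19 RPKM in Col and at 9.32, 8.48 and 7.92 RPKM in hda5-1. The groups did not overlap, and the means were 4.38 ± 0.601 and 8.57 ± 0.704 RPKM (SD, n = 3 each, compared by limma). The log2 difference of 0.96 (SE 0.13, adjusted p = 0.00131 by limma) was just under the 2-fold limit, and FLC passed the full rule without Col replicate 1 (1.06) or without hda5-1 replicate 3 (1.01). FLC was at 2.82 RPKM in hda6-6 and 2.14 RPKM in hda9-1, and the direct log2 differences of hda5-1 from them were 1.59 and 1.96, both called. Of the 6 FLC clade genes, MAF1, a relative of FLC on the chromosome 1 stretch, was higher and MAF5 was lower. MAF1 was at 14.3 to 15.9 RPKM in the 3 Col libraries and at 34.8 to 38.6 RPKM in the 3 hda5-1 libraries (log2 difference 1.28, adjusted p = 8.19e-05 by limma), and MAF5 had -1.14 (adjusted p = 0.000509).

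**Figure D3:**
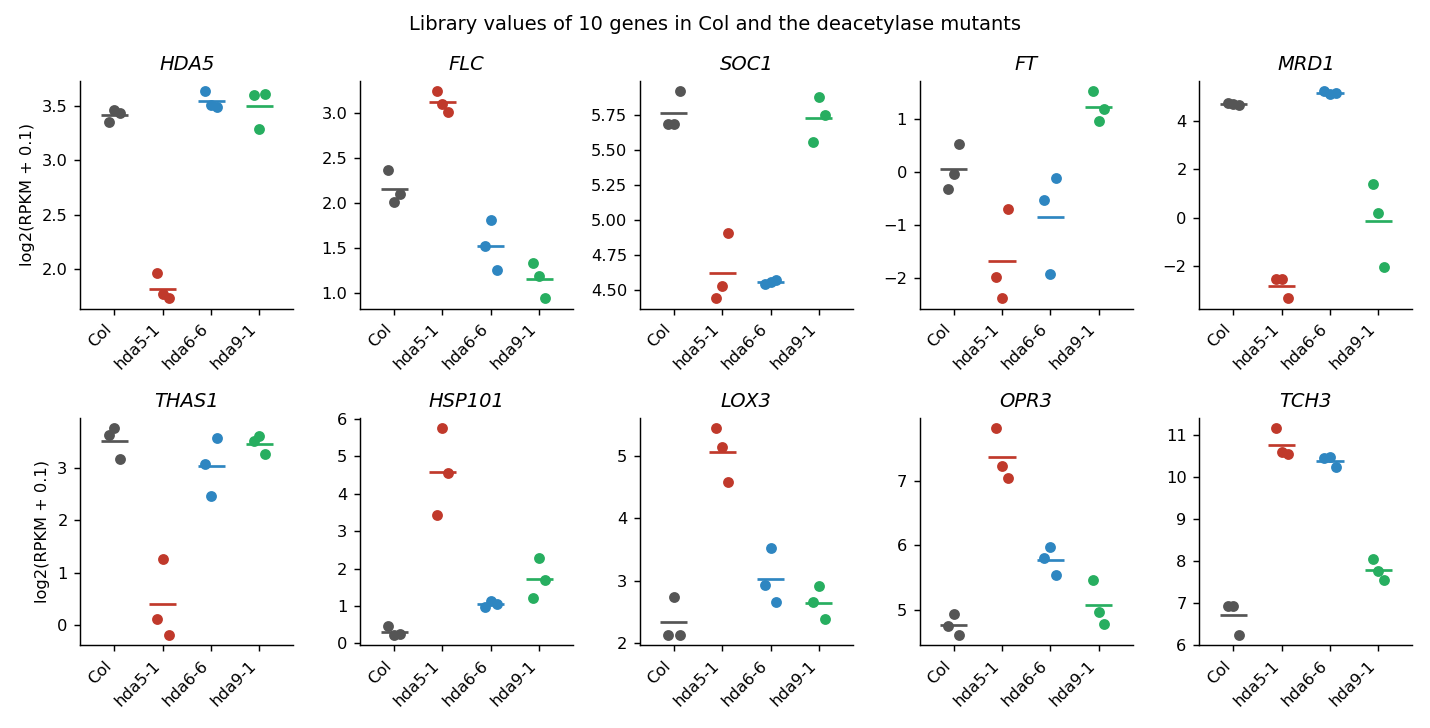
Values of 10 genes as log2(RPKM + 0.1) (y axes, each on its own scale) in the 3 libraries each of Col, hda5-1, hda6-6 and hda9-1 (points), with the mean of each genotype as a line. FLC is higher in hda5-1 than in the other genotypes, HDA5 and THAS1 are lower, and SOC1 and TCH3 of hda5-1 lie near hda6-6.

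SOC1, a flowering integrator, was at 51.2, 51.4 and 60.3 RPKM in Col and at 21.6, 22.9 and 29.8 RPKM in hda5-1, with no overlap. Its log2 difference was -1.14 (SE 0.135, adjusted p = 0.000704 by limma). It was at 23.4 RPKM in hda6-6 and 53.1 RPKM in hda9-1. FT, the mobile floral signal, was at 0.695, 0.865 and 1.34 RPKM in Col and at 0.154, 0.0915 and 0.511 RPKM in hda5-1. All hda5-1 values lay below all Col values, and the log2 difference was -1.74 (SE 0.451, adjusted p = 0.024 by limma). The FT call was lost when Col replicate 2 (-1.79), Col replicate 3 (-1.5), hda5-1 replicate 1 (-1.60) or hda5-1 replicate 2 (-1.39) was left out. Of the 13 tested floral activators, 5 were lower and none higher, with a median log2 difference of -0.70 against 0.05 for all genes, and 3 were lower without Col replicate 2, Col replicate 3 or hda5-1 replicate 2. The other lower members were SPL3 (-1.40) and SPL9 (-1.21), age-pathway factors, and LFY (-1.51), a floral identity gene at up to 0.549 RPKM that lost its call without Col replicate 2 (-1.28), Col replicate 3 (-1.42), hda5-1 replicate 2 (-1.34) or hda5-1 replicate 3 (-1.53). Of the 9 other floral repressors tested, TEM2 (-2.02) and TEM1 (-1.33), which repress FT, were lower. None of the 9 tested FVE and FLD family genes was called, and their median was -0.13.

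Clock genes that peak in the morning were lower in hda5-1. CCA1, a central morning repressor, was at 3.28, 2.92 and 3.53 RPKM in Col and at 0.918, 0.634 and 0.764 RPKM in hda5-1. Each hda5-1 value was under each Col value, with a log2 difference of -1.95 (adjusted p = 0.000213 by limma). Of the 14 morning genes 6 were lower and none higher, with a median of -0.76, and these 6 included CDF3 (-3.07), PRR9 (-2.89) and CDF1 (-2.09). LHY, the partner of CCA1, had -0.45 (adjusted p = 0.257). Among 10 evening genes the LUX homologue BOA was higher (2.26), while PRR5 (-1.62), FKF1 (-1.29) and GI (-1.20), a photoperiod gene, were lower. CCA1 was also at 0.679 RPKM in hda6-6 and 0.516 RPKM in hda9-1, and in those mutants against the same Col libraries 6 and 7 of the 14 morning genes were called lower, beside 5.18% and 3.93% of all genes. The part of the hour of harvest in these values was not tested.

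Genes that respond within minutes to touch, wounding or cold moved in both directions. Of the 30 early stress genes tested, 14 were lower and 3 higher in hda5-1, with a median log2 difference of -1.19, and 5 were higher without Col replicate 2. TCH3, a calmodulin-like touch gene, was at 123, 123 and 75.8 RPKM in Col and at 2308, 1560 and 1513 RPKM in hda5-1, and its means were 1350 RPKM in hda6-6 and 225 RPKM in hda9-1. TCH3 had a log2 difference of 4.07 (SE 0.231, adjusted p = 4.48e-05 by limma), and WRKY18, a regulator of basal defense, and TCH4, a xyloglucan-modifying enzyme, also rose, by 3.22 and 1.41. ORA47, an activator of jasmonate synthesis genes, was at 146, 204 and 133 RPKM in Col and at 5.39, 4.18 and 5.46 RPKM in hda5-1 (log2 difference -4.97, adjusted p = 1.61e-05). The zinc finger gene ZAT10 (-3.67) and the ethylene response factor genes ERF5 (-3.09), ERF105 (-2.95) and ERF104 (-2.80) were lower too. Against Col, 11 of the 30 genes were lower in hda6-6 and 25 in hda9-1, beside 5.18% and 3.93% of all genes, with the Col libraries shared. ORA47 was at 2.45 RPKM in hda6-6 and 4.94 RPKM in hda9-1, so that Col was the high group.

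The cold genes were called in both directions. The CBF transcription factors, which switch on cold-regulated genes, were lower: CBF3 was at 4.43, 6.01 and 10.8 RPKM in Col and at 0.145, 0.258 and 0.193 RPKM in hda5-1 (log2 difference -4.51, adjusted p = 9.06e-05 by limma), and CBF2 (-2.04) and CBF1 (-1.5) fell with it. Of the genes that CBF factors are known to switch on, the galactinol synthase gene GOLS3 was lower too, from 0.645 to 0.0962 RPKM (-1.93, adjusted p = 0.00126), while several genes of protective proteins were higher. KIN1 was at 5.03, 7.5 and 16.8 RPKM in Col and at 62.8, 78.7 and 98.6 RPKM in hda5-1, with no overlap (log2 difference 3.18, adjusted p = 0.000851). KIN1 was also called higher than in hda6-6 and hda9-1. COR15B (1.42), COR15A (1.41) and ERD10 (1.40) rose as well, so that 5 of 12 tested genes rose and 4 fell. In hda6-6 and hda9-1 against the same Col libraries no gene of the list was higher, beside 6.25% and 2.11% of all genes. In those mutants 5 and 6 of the list were lower, beside 5.18% and 3.93% of all genes.

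Jasmonate synthesis genes were higher in hda5-1 and several set it apart. Jasmonate is made from a plastid fatty acid by lipoxygenases (LOX), allene oxide synthase (AOS), allene oxide cyclases (AOC) and the reductase OPR3. LOX3 was at 4.28, 6.54 and 4.3 RPKM in Col and at 43.4, 35.3 and 23.7 RPKM in hda5-1, and its log2 difference was 2.72 (SE 0.245, adjusted p = 0.000216 by limma). OPR3 was at 26.9, 30.8 and 24.5 RPKM in Col and at 224, 149 and 132 RPKM in hda5-1, with a log2 difference of 2.58 (SE 0.192, adjusted p = 0.000105). The groups did not overlap for either gene. LOX4 (3.04) and AOC1 (2.25) were higher as well, and all 4 genes were called higher than in hda6-6 and hda9-1. In the single fld-6 and fve-4 libraries AOC1 was at 164 and 198 RPKM, above its hda5-1 mean of 138 RPKM. OPR3 was at 131 and 81.8 RPKM there, LOX3 at 13.8 and 5.48 RPKM and LOX4 at 6.02 and 0.662 RPKM. Of the 11 genes tested 7 were higher and none lower, with a median of 1.26. In hda6-6 and in hda9-1 against Col 1 of the 11 was higher, beside 6.25% and 2.11% of all genes. AOS (0.75) and AOC4 (-0.49) moved less than 2-fold. The reads of the near-identical AOC genes may be shared between them in RPKM, so their separate values are uncertain.

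Genes that act in jasmonate signaling were called in both directions. Of 15 tested JAZ and response genes 2 were higher and 3 lower, with a median of -0.08. JAZ10 (1.11) and JAZ2 (1.07, on the chromosome 1 stretch), which encode repressors of the pathway, were higher, and JAZ10 lost the call without hda5-1 replicate 1 (0.98) and JAZ2 without Col replicate 3 (0.98). MYC2, the main activator, was at 83.6, 106 and 69.2 RPKM in Col and at 33, 27.5 and 27.1 RPKM in hda5-1 (log2 difference -1.55, adjusted p = 0.000369 by limma). The storage protein gene VSP1 (-1.28) and JAZ1 (-1.09, lost without Col replicate 2 at -0.91 or hda5-1 replicate 3 at -0.93) were lower. Against the same Col libraries MYC2 and JAZ1 were called lower in hda6-6 and hda9-1 too, with MYC2 at 28 and 31.7 RPKM there. JAZ10 was called higher in hda6-6, while VSP1 and JAZ2 were called in neither mutant. The defensin genes PDF1.2c and PDF1.2, which respond to jasmonate and ethylene together, were among the 12 genes with the highest log2 differences. PDF1.2c was at 0.107, 1.98 and 0.439 RPKM in Col and at 5.19, 26 and 12.8 RPKM in hda5-1 (4.31, adjusted p = 0.00737). PDF1.2 had 3.56 and lost the call without Col replicate 1 (3.25). Their near-identical sequences make the separate values uncertain. Of 20 ethylene synthesis and signaling genes, ACS11 (1.88) and ACS8 (1.18) were higher and ACS6 (-2.52) was lower. ACS6 was also called lower than Col in hda6-6 and hda9-1, and ACS11 and ACS8 were also called higher than Col in hda6-6 but not in hda9-1.

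Heat shock genes were higher in hda5-1 by amounts that differed between its libraries. HSP101, a disaggregase needed for heat tolerance that lies on the chromosome 1 stretch, was at 1.29, 1.07 and 1.08 RPKM in Col and, in hda5-1, at 10.8 RPKM in replicate 1, at 54.1 RPKM in replicate 2 and between them in replicate 3, with a mean of 29.5 ± 22.3 RPKM (SD). HSP17.6A, a small heat shock protein, was at 0.941, 0.0733 and 0.51 RPKM in Col and at 4.66, 34.7 and 16.2 RPKM in hda5-1. HSFA2, a heat-induced transcription factor, was at 0.537, 0.39 and 0.291 RPKM in Col and at 2.01, 8 and 4.27 RPKM in hda5-1. None of the 3 genes overlapped between the groups, and in each the order of the hda5-1 libraries was the same, with replicate 2 the highest. Their log2 differences were 4.28 (adjusted p = 0.000603), 4.86 (adjusted p = 0.00364) and 3.09 (adjusted p = 0.00189 by limma). Of the 15 genes tested 9 were higher and none lower, with a median of 2.1, and 5 of the 9 were set apart in hda5-1. Against Col, 2 of the 15 were higher in hda6-6 and 4 in hda9-1, beside 6.25% and 2.11% of all genes. The summed RPKM of the 15 genes was 140, 471 and 252 in hda5-1, 40.8 to 52.5 in Col, 67 to 69.2 in hda6-6 and 91.1, 208 and 110 in hda9-1. It was 209 in the fve-4 library. The lowest hda5-1 library, at 140, lay below the fve-4 library and below the highest hda9-1 library, at 208. In hda5-1, replicate 2 was the highest of the 3 libraries in 13 of the 15 genes. Beyond the list, AT1G59860 (3.67) and AT1G07400 (3.47), which encode proteins of the small heat shock class, were among the 8 highest of the genes set apart.

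**Figure D4:**
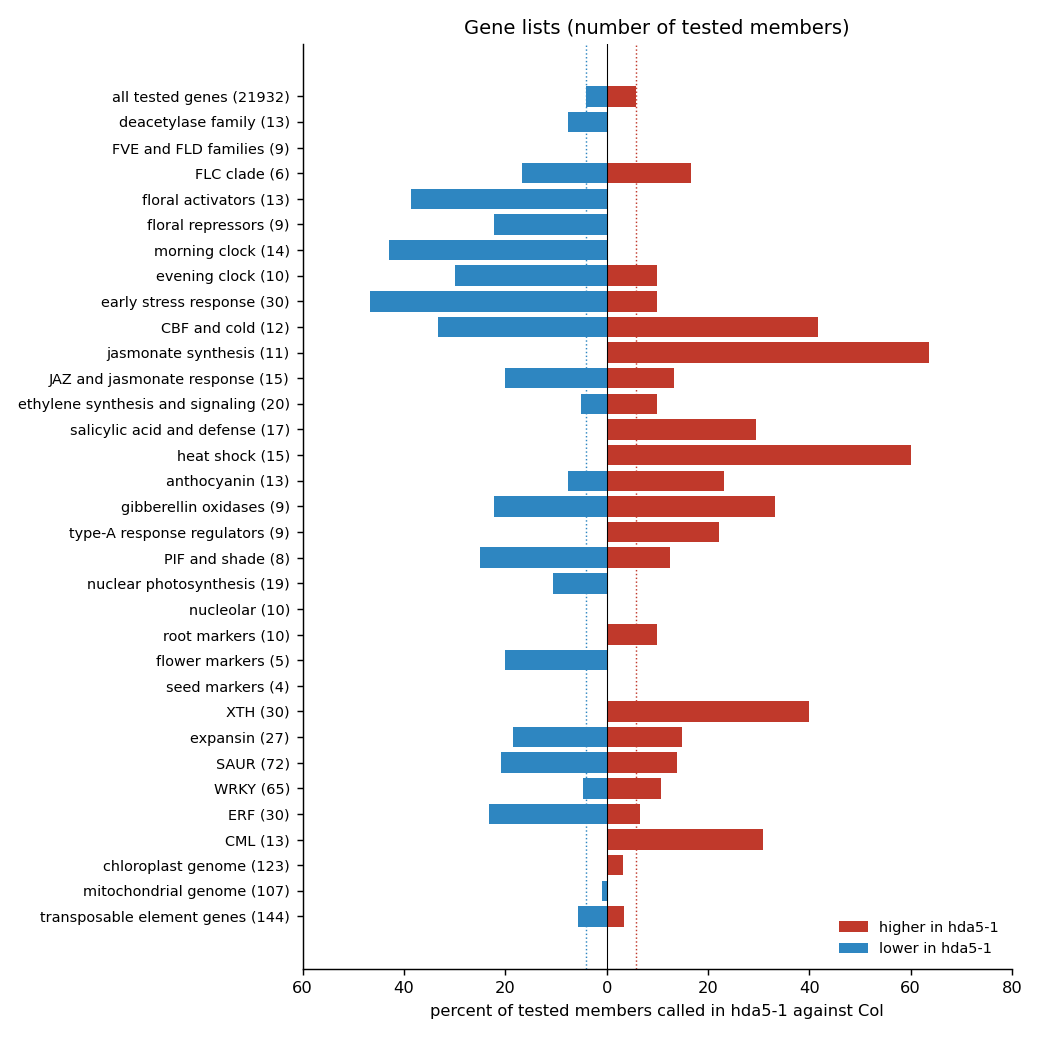
For each gene list (rows, with the number of genes tested), the percent called higher (right, red) or lower (left, blue) in hda5-1 against Col, with all 21932 tested genes in the top row and its percents as dotted lines. Jasmonate synthesis (7 of 11) and heat shock (9 of 15) reach furthest to the right, and early stress genes (14 of 30) and morning clock genes (6 of 14) furthest to the left. The row of transposable element genes holds all tested genes annotated as pseudogenes.

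Salicylic acid and defense genes were moderately higher. SARD1, an activator of salicylic acid synthesis on the chromosome 1 stretch, was at 0.854, 1.72 and 0.761 RPKM in Col and at 21, 15.6 and 7.47 RPKM in hda5-1. The groups did not overlap, and the log2 difference was 3.57 (SE 0.41, adjusted p = 0.000603 by limma) against Col, 2.01 against hda6-6 and 2.39 against hda9-1, above the shift of the stretch. EDS1 (1.23), a hub of receptor signaling, FMO1 (1.39), an enzyme of systemic resistance, PBS3 (1.16), an enzyme of salicylic acid synthesis, and WRKY38 (1.49) were higher as well, so that 5 of the 17 genes tested were higher and none lower, with a median of 0.72. The count was 3 without Col replicate 1 or hda5-1 replicate 3 and 2 without hda5-1 replicate 2. FMO1 lost its call without hda5-1 replicate 2 (1.16) or replicate 3 (1.36). PBS3 lost it without Col replicate 1 (1.06), Col replicate 3 (1.13), hda5-1 replicate 2 (0.82) or hda5-1 replicate 3 (1.22). WRKY38, under 1 RPKM in all 6 libraries, lost it without Col replicate 1 or any hda5-1 replicate (1.41 to 1.60), while NIMIN1 was called without hda5-1 replicate 3 (1.84). PBS3 and NIMIN1 were named after their values were seen. ICS1, isochorismate synthase of the same pathway, also lies on the chromosome 1 stretch and had 0.56, below the median shift of the stretch. The defense marker PR1 had 1.51 (adjusted p = 0.413 by limma). CRK14, a receptor-like kinase gene among the 12 highest, was at 0.603, 0.657 and 0.376 RPKM in Col and at 7.91, 8.64 and 5.33 RPKM in hda5-1 (3.52, adjusted p = 8.69e-05). Its means were 4.86 RPKM in hda6-6 and 1.46 RPKM in hda9-1. Against the same Col libraries 3 of the 17 genes were higher in hda6-6 and 2 in hda9-1, beside 6.25% and 2.11% of all genes. In hda9-1 1 was lower, beside 3.93%. FMO1, WRKY38 and CRK14 were called higher than Col in both mutants.

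Genes of cell wall loosening formed a further group. Of 30 tested XTH genes, which cut and rejoin xyloglucan chains, 12 were higher and none lower, with a median of 0.79, and none was set apart from hda6-6 and hda9-1 together. XTH33 was at 0.159, 0.13 and 0 RPKM in Col and at 3.78, 3 and 4.34 RPKM in hda5-1 (log2 difference 4.38, adjusted p = 0.000174 by limma). XTH9 was at 93.7, 94.9 and 106 RPKM in Col and at 526, 415 and 480 RPKM in hda5-1 (2.26, adjusted p = 3.18e-05). Neither overlapped, and XTR6 (2.59) and XTH18 (2.54) were higher as well. In hda6-6 against the same Col libraries 13 XTH genes were higher, beside 6.25% of all genes, and XTR6 was at 229 RPKM there against 42.1 in hda5-1. Of the expansin family, the expansin-like genes EXLA2 (3.93), EXLA1 (3.51) and EXLA3 (2.24) were higher. EXLA2 was at 1.84, 2.18 and 2.04 RPKM in Col and at 38.5, 25.3 and 34.2 RPKM in hda5-1. EXPA8, an alpha expansin, was at 49.7, 60.8 and 70.6 RPKM in Col and at 4.13, 4.25 and 4.47 RPKM in hda5-1 (-3.77, adjusted p = 1.61e-05), and EXPA1 (-1.82), EXPA15 (-1.19) and EXPA11 (-1.1) were lower too. EXPB2, a beta expansin under 1 RPKM, was higher (1.1) and lost the call without Col replicate 1 (1.12), Col replicate 3 (1.02), hda5-1 replicate 1 (0.94) or hda5-1 replicate 3 (1.05). AT4G30380, a Barwin-related gene, was at 0.114 to 0.124 RPKM in Col and listed at 0 in all hda5-1 libraries, and its lower call was lost without any of the 6 libraries. Of 27 tested expansin genes 4 were higher and 5 lower, or 3 lower without hda5-1 replicate 2. Against the same Col libraries 5 were higher and 7 lower in hda6-6, beside 6.25% and 5.18% of all genes. In hda9-1 4 were higher and 3 lower, beside 2.11% and 3.93% of all genes. In hda6-6, EXLA2 was at 64.5 RPKM, EXLA1 at 210, EXLA3 at 3.82 and EXPA8 at 4.5 RPKM, and none of these 4 genes was set apart. Among 72 SAUR genes, small auxin-induced growth genes, 10 were higher and 15 lower. Against the same Col libraries 9 were higher and 14 lower in hda6-6, and 8 were higher and 15 lower in hda9-1. SAUR20 (-2.55) was lower, while AT4G22620 was at 0.264, 0.191 and 0.0951 RPKM in Col and at 5.18, 1.86 and 1.81 RPKM in hda5-1 (3.30, adjusted p = 0.00108) and was set apart.

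The cytokinin-induced response regulators ARR6 (2.18) and ARR7 (2.06) were higher, as the called members of 9 tested. ARR6 was at 1.74, 2.14 and 1.75 RPKM in Col and at 13.4, 5.34 and 9.47 RPKM in hda5-1, and it was set apart from hda6-6 (3.84 RPKM) and hda9-1 (2.52 RPKM). Of 13 anthocyanin genes, the enzyme genes CHS (1.97) and DFR (2.40) were higher and PAP1 (-2.06), a transcription factor that activates the pathway, was lower. CHS was at 30.5, 53 and 25.7 RPKM in Col and at 141, 129 and 140 RPKM in hda5-1 (adjusted p = 0.000741 by limma). F3H (1.40, adjusted p = 0.0309) was the remaining higher member and lost the call without Col replicate 1 (1.35), Col replicate 2 (1.28), hda5-1 replicate 1 (1.00) or hda5-1 replicate 3 (1.34). Of 9 gibberellin oxidase genes, GA3OX1 (1.60), which makes active gibberellin, GA2OX6 (1.34) and GA2OX2 (1.25), which inactivate it, were higher and the synthesis gene GA20OX2 (-1.16) was lower and set apart. GA2OX1 (-1.13) was lower as well and lost the call without hda5-1 replicate 2 (-1). Of 8 PIF and shade genes, HFR1 (-1.96) and IAA29 (-2.17) were lower, and IAA19 (1.09) was higher except without Col replicate 1 (0.92) or hda5-1 replicate 1 (0.95). ERF53 (2.26) and ERF10 (1.74), whose promoter is printed above, were higher and set apart, although 7 of the 30 ERF genes were lower. In the single fld-6 library ERF53 was at 6.56 RPKM and ERF10 at 2.83 RPKM, beside means of 6.47 and 2.55 RPKM in hda5-1. Both were at 1.1 RPKM in fve-4. WRKY genes had 7 higher and 3 lower of 65, or 5 lower without Col replicate 3, and CML calcium sensors had 4 higher and none lower of 13.

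The lowest log2 difference among the named genes was that of MRD1. MRD1 (AT1G53480), named for its lower RNA in a methionine-accumulating mutant, was at 26.1, 26 and 24.7 RPKM in Col and at 0.0728, 0.0716 and 0 RPKM in hda5-1. It was at 35.3 RPKM in hda6-6 and at 2.54, 1.04 and 0.141 RPKM in hda9-1, so hda9-1 was low as well. The log2 difference was -7.48 (SE 0.228, adjusted p = 1.29e-05 by limma). Its size depends on the pseudocount because hda5-1 was near 0, and was -4.67 with a pseudocount of 1 and -9.30 with 0.01. HEI10, which is read from the other strand of the same place (chr1:19963267-19966952, against chr1:19963047-19964712 for MRD1), was at 3.37, 6.28 and 5.02 RPKM in Col and at 0.467, 0.447 and 0.486 RPKM in hda5-1 (-3.10, adjusted p = 0.000103). The counting is not stated to use strand, so reads of these overlapping genes cannot be told apart. The flanking genes MSL4 (-0.06) and MUM4 (-0.38) were not called.

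Other low genes differed in how they compared with the other mutants. AT2G16005, which encodes an MD-2-related lipid recognition protein, was at 5.72, 9.35 and 4.77 RPKM in Col and at 0.118, 0.105 and 0.177 RPKM in hda5-1, and was at 2.98 RPKM in hda6-6 and 1.92 RPKM in hda9-1. AT4G22214, a defensin-like gene, was at 16.4, 13.6 and 10.9 RPKM in Col and at 0.994, 1.62 and 0.55 RPKM in hda5-1, with 13.5 RPKM in hda6-6 and 26.4 RPKM in hda9-1. Both were set apart in hda5-1 (log2 differences from Col of -4.80 and -3.66), as were the peptidase gene scpl30 (-4.04) and the lectin gene AT5G35940 (-3.89). By contrast AT5G20260, an exostosin family gene, fell from 6.64 RPKM in Col to 0.143 RPKM in hda5-1 and was at 0.133 RPKM in hda6-6 and 0.135 RPKM in hda9-1. AT2G15020 (-4.51) had the same pattern. The mitochondrial gene ATMG00665 (-4.11) was at 2, 0 and 0 RPKM in hda5-1 and lost the call without Col replicate 1 (-4.25), 2 (-4.19) or 3 (-3.90) and without hda5-1 replicate 2 or 3 (-3.38 each). On the higher side, AT1G50040, a formin-like gene, was at 1.16, 1.46 and 1.51 RPKM in Col and at 31.3, 23.3 and 31.2 RPKM in hda5-1 (4.28, adjusted p = 1.92e-05 by limma), with 25.3 RPKM in hda6-6 and 7.44 RPKM in hda9-1. Of the 12 highest genes 5 were also called higher than in hda6-6 and 12 than in hda9-1, with 5 higher than in both. Of the 12 lowest genes 6 were called lower than in hda6-6 and 6 than in hda9-1, with 5 lower than in both.

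THAS1, which makes the root triterpene thalianol, was at 12.3, 13.4 and 8.86 RPKM in Col and at 0.995, 2.29 and 0.782 RPKM in hda5-1. There was no overlap, and the log2 difference was -3.12 (SE 0.353, adjusted p = 0.000576 by limma) against Col, -2.64 against hda6-6 and -3.05 against hda9-1. CYP705A5, the neighbouring cytochrome P450 gene of the same pathway, was at 46.9, 45.8 and 33.7 RPKM in Col and at 5.52, 10.8 and 4.15 RPKM in hda5-1 (-2.71, adjusted p = 0.000649). Both are root genes by background knowledge, and the root markers are given beside them. Of 10 tested root markers 1 was higher, the tonoplast aquaporin gene TIP2;3 (2.12), and none lower, with a median of 0.12, and 2 were higher without hda5-1 replicate 2. Their summed RPKM was 1456 to 1768 in Col, 1141 to 1483 in hda5-1, 1301 to 1672 in hda6-6 and 1116 to 1466 in hda9-1. The part of root share in these values was not tested.

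The labelled tissue was checked by organ markers. The 19 nuclear photosynthesis genes summed to 112655 to 132062 RPKM in Col and 94000 to 109537 RPKM in hda5-1, as is usual of green seedlings, with LHCB2.1 (-1.32) and LHCB2.2 (-1.30), antenna proteins, called lower and a median of -0.31. Flower markers were low in both groups. AP3 and AG were not tested for lack of signal, and SEP3 fell from 4.46 to 1.17 RPKM (-1.84, adjusted p = 0.000128 by limma). The 5 flower markers summed to 5.48 to 6.93 RPKM in Col and 2.42 to 3.28 RPKM in hda5-1. No seed marker of 4 tested and no nucleolar gene of 10 was called. Genes annotated as pseudogenes stood for transposable element genes, so other pseudogenes may be among them. Of these 144 tested genes 5 were higher and 8 lower, with a median of 0.01. In hda6-6 against the same Col libraries 28 of them were higher, where 6.25% of all genes were. Of 123 chloroplast genes 4 were higher and none lower, with a median of 0.44, and the number higher ranged from 2, without Col replicate 3, hda5-1 replicate 2 or hda5-1 replicate 3, to 11, without Col replicate 1. Of 107 mitochondrial genes none was higher and 1 was lower, with 2 lower without Col replicate 2, none lower without Col replicate 3 or hda5-1 replicate 2, and 1 higher without Col replicate 1.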

How the data were processed

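RNA of 14-day-old long-day seedlings was sequenced by the authors from poly-A RNA. According to the submitters' notes and the study's methods, base calls were made with CASAVA 1.8, reads were mapped with Bowtie2 to TAIR10, and the deposited values are RPKM per gene and library, computed by the authors with RackJ. No read counts were used here. Depth was worked out from the spacing of low RPKM values. The study's methods speak of biological repeats for Col and hda6-6, with no such statement for hda5-1, and no label says that the replicates are separate cultures, so p-values measure the spread between these samples, which may be technical.

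Genes with RPKM above 0.1 in at least 3 of the 6 libraries were tested on log2(RPKM + 0.1) with limma 3.58.1 in R 4.3.3 (eBayes with trend, Benjamini-Hochberg over 21932 genes), and called at adjusted p under 0.05 and at least 2-fold. Direct contrasts with hda6-6 and hda9-1 came from a fit of 12 libraries. The fit of the 6 libraries was tested on simulated data. The smallest two-sided p of an exact permutation test of 3 against 3 is 0.1, so none was used. Tables were made with Python 3.11.15 and pandas 2.3.3.

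Genes named were the 12 largest differences in each direction (called, mean RPKM of at least 2, no overlap), the 8 largest set apart in each direction, HDA5 and HDA18, and up to 4 called members in each direction of each gene list, plus FLC, FT, SOC1, CCA1 and LHY, 136 in all. Other names were chosen after their values were seen. The comparison, its members and the 33 gene lists were chosen with earlier results of these data known. Promoters and positions came from the RefSeq annotation of TAIR10.1, which held 32835 of the 33602 IDs. Alternatives covered pseudocount, filter, scaling, trend, robust variance, replicate block, fold limit, all 14 libraries and each replicate left out.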

Additional observations from a re-analysis of the deposited data

How the results depend on the processing

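With a pseudocount of 1 the genes called higher and lower in hda5-1 than in Col numbered 784 and 509, and the lower genes set apart from Col, hda6-6 and hda9-1 numbered 34. Without the 2-fold limit 3512 genes were higher and 2653 lower, 479 and 170 were set apart, the called list members numbered 270 and 6.27% of higher promoters held CGCGTT. Not counting the chromosome 1 stretch, an alternative chosen after seeing the data, left 44 higher genes set apart. Leaving out each library in turn gave 1105 to 1377 higher and 794 to 896 lower genes, 99 to 105 and 54 to 69 set apart, 160 to 177 called list members, an HDA5 log2 difference of -1.66 to -1.55 and a CGCGTT share of 8.17% to 9.41%. Replicate numbers do not state shared growth, and the deviations of Col and hda5-1 libraries of the same number correlated at 0.108, 0.0273 and 0.103 over genes, so the libraries were not paired. With the replicate block 1270 genes were higher and 875 lower, 108 and 64 were set apart, and 8 of the 17 salicylic acid and defense genes were higher. Scaling to a common median of ratios moved the share of higher calls from 58.6% to 53.8%, and leaving out Col replicate 2 moved it to 63.4%. Of the 136 named genes 30 lost the call with a pseudocount of 1. At most 12 of those tested lost it under any other setting, and none changed direction. With a filter of RPKM above 1 in at least 3 libraries, 115 of the 136 were tested and all kept their result. RPKM without counts gives no counting error, so genes near 0 are limited by an unknown number of reads.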

Other observations

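Several genes that were lower in hda5-1 lay next to each other. These groups were noticed after the values were seen and are given as values. In the thalianol group on chromosome 5, CYP708A2 was at 15 RPKM or more in each Col library (mean 16.2) and at 2.36, 5.1 and 2.38 RPKM in hda5-1 (log2 difference -2.36, adjusted p = 0.000643 by limma), and the acyltransferase gene AT5G47980 had -1.59. Both lie between or beside CYP705A5 and THAS1, and the outer neighbours AT5G47970 (0.46) and AT5G48020 (0.18) were not called. In the marneral group, another root triterpene pathway on the same chromosome, CYP705A12 had -2.05 and CYP71A16 had -1.26, and both were also called lower than in hda6-6 and hda9-1. MRN1, the marneral synthase gene, was at 0.277, 0.177 and 0.106 RPKM in Col and at 0, 0.015 and 0.0336 RPKM in hda5-1, and was not called against hda6-6. On chromosome 4 the defensin-like genes AT4G22212 (-1.76), AT4G22214 (-3.66) and AT4G22230 (-1.59) were lower, while ISU1, which lies among them, had -0.09 and AT4G22217 had -1 with overlapping groups. On chromosome 1 the beta-glucosidase genes BGLU21 (-1.28) and BGLU22 (-1.33), neighbours of near-identical sequence, fell from 162 to 66.6 and from 95.4 to 38.4 RPKM.

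Genes of glucosinolate breakdown were also among the 63 lower genes set apart. The myrosinase gene TGG2 fell from 76.8 to 28.2 RPKM (log2 difference -1.47) and the specifier protein gene NSP3 from 4.32 to 1.01 RPKM (-1.88). HIS1-3, a stress-inducible linker histone gene, fell from 134 to 24 RPKM (-2.50) and was at 51.1 RPKM in hda6-6 and 51.2 RPKM in hda9-1. EARLI1, a lipid transfer protein gene, rose from 46.7 to 233 RPKM (2.33) outside the chromosome 1 stretch and was set apart as well. These genes were picked from their values.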
